A study of Mus musculus with 10 samples.

Results

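The genes described here are the angiopoietin-TIE genes and a set of endothelial surface genes: the receptors Tek and Tie1, the ligands Angpt1 and Angpt2, and the surface and junction genes Pecam1, Cdh5, Cldn5, Emcn, Plvap and Robo4. They were listed by name, with earlier results of these data known, and all 10 have a row among the 24470 gene entries of the count table. The samples were C57BL/6 mouse testes at E12.5 from 5 embryos, M1 to M5. Each embryo gave 1 testis to each treatment, and culture lasted 48 h. The treatments were 75 µM of a glycogen phosphorylase inhibitor (GPI), which blocks the release of glucose units from glycogen, and the vehicle DMSO. The testes were cultured with the mesonephros attached, which was cut away by hand before RNA was taken from the whole testis, so that vessels were measured together with every other cell type, in 1 library per testis with 5 libraries per treatment. Libraries held 10203679 to 15590223 counts with vehicle and 11025409 to 15635322 with GPI.

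TEK, also called TIE2, is a receptor tyrosine kinase of endothelial cells, and TIE1 is its relative, which binds neither angiopoietin with high affinity and modulates TEK in the same complex. Angiopoietin 1, made largely by mural and mesenchymal cells, activates TEK and stabilises vessels, while angiopoietin 2, made by endothelial cells and stored there, can oppose or mimic it depending on context. In the fetal testis, endothelial cells that enter from the mesonephros build the coelomic vessel and the vessels between the cords, and PECAM1 also marks the germ cells of the gonad.

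With GPI, both receptors and all 6 surface and junction genes were lower, while neither ligand differed beyond the spread between mice. In edgeR's quasi-likelihood test, fitted with mouse and treatment to 13941 genes at a false discovery rate (FDR) of 0.05, 8 of the 10 genes were called lower, where 11.9% of all genes tested were called lower. None was called higher (0 of 10 by edgeR, DESeq2 and limma-voom, and 0 at an unadjusted p under 0.05), where 11.1% of all genes tested were called higher. The 8 log2 fold changes ran from -4.16 for Pecam1 to -2.12 for Robo4. The median log2 fold change was -2.96 over the 10 genes and 0.02 over all genes tested. In these 8 genes every GPI library lay below every vehicle library, which held for 9.05% of all genes tested. In bulk RNA, fewer endothelial cells and less RNA per endothelial cell cannot be told apart.

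All 10 genes passed the filter on low counts, but 3 of them, Tie1, Cldn5 and Plvap, reached its minimum in the vehicle libraries and not in the GPI libraries, and so could enter the test only by being high with vehicle. Among the 7 genes that reached it with both treatments, 5 were called lower (Tek, Pecam1, Cdh5, Emcn and Robo4), and the median log2 fold change of the 7 was -2.28. Since a gene that enters in this way had to be lower with GPI, the counts and the median over all 10 genes are a description, and the changes of Tie1, Cldn5 and Plvap are given below by their counts and differences, with no p. The ratios between genes given below were taken from the counts of all 10 libraries without this filter. Those that hold Tie1 or Plvap are given with a p. These p rest on low counts with GPI, 3 to 26 per library for Tie1 and 0 to 11 for Plvap.

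**Figure D1:**
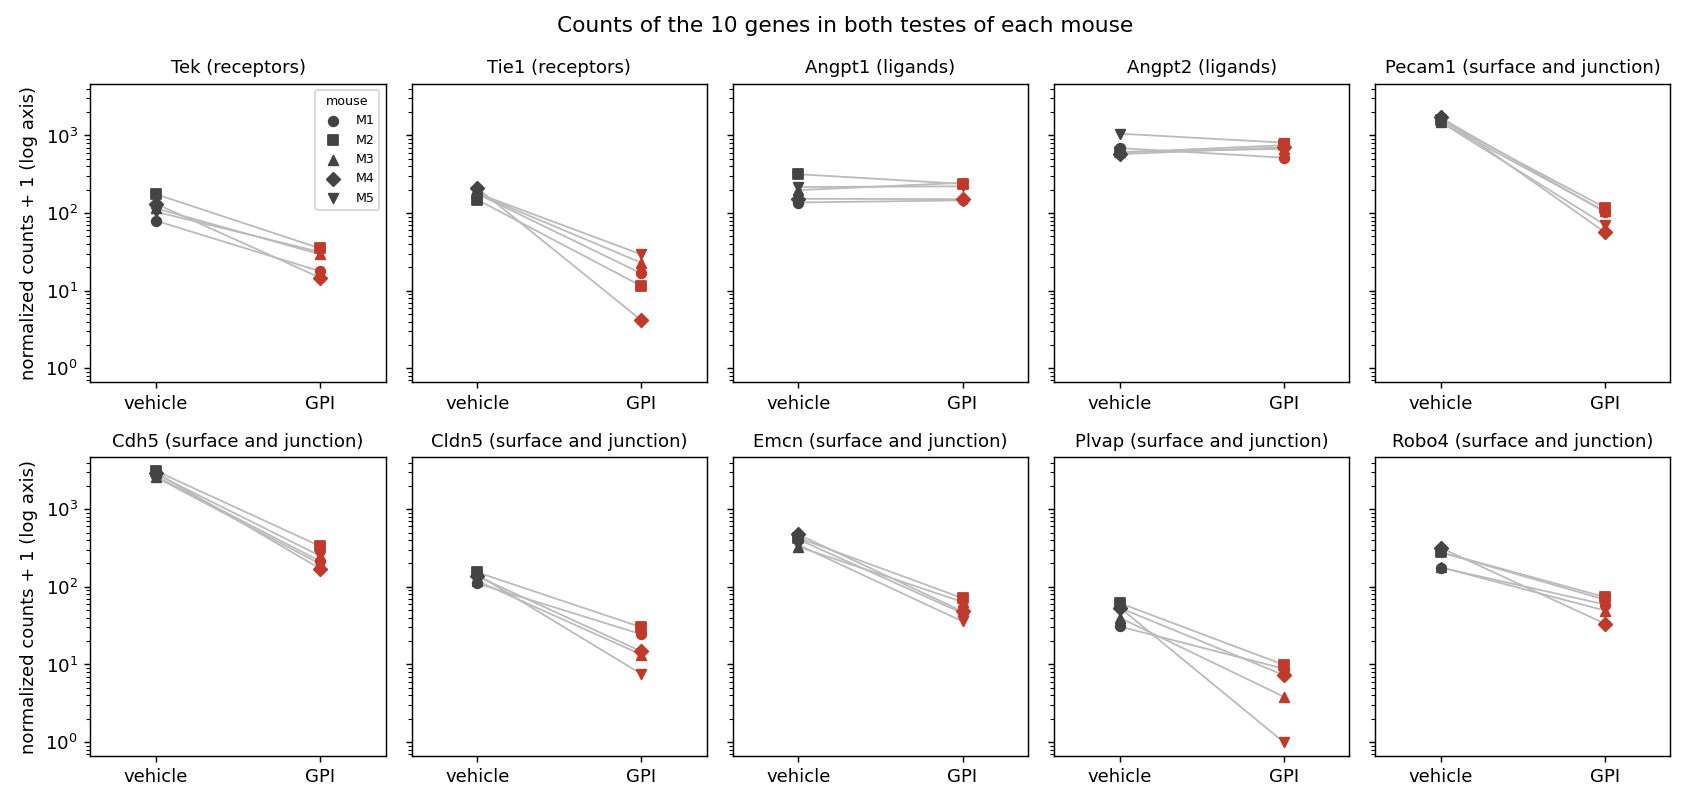
Normalized counts plus 1 (log axis) of each gene in the vehicle testis (grey) and the GPI testis (red) of 5 mice, 1 marker shape per mouse, with a line joining both testes of a mouse. The lines of Angpt1 and Angpt2 run level or cross, with GPI values of 145 to 245 and 517 to 808, and those of the other 8 genes all descend.

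Tek (Entrez Gene 21687, mm10 chr4:94739289-94874976, plus strand) encodes the angiopoietin receptor. Its normalized counts, scaled to the mean library size, were 78.6, 174, 114, 130.5 and 103 in the vehicle testes of M1 to M5 and 16.8, 34.1, 28.5, 13.7 and 30.5 in their GPI testes. The highest GPI value, from M2, was below the lowest vehicle value, from M1, and the M2 testes held the most Tek with either treatment. On the log2 scale Tek differed by -2.28 ± 0.24 (standard error, n = 5 mice, edgeR adjusted p = 1.24e-05), which left 20.6% of the mean vehicle level. Per mouse the log2 ratio ran from -3.08 in M4 to -1.69 in M5.

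Tie1 (Entrez Gene 21846, mm10 chr4:118471191-118489849, minus strand), the co-receptor on the same chromosome, had 176, 148, 176, 210.2 and 179 normalized counts with vehicle and 15.7, 10.5, 21.9, 3.16 and 28.3 with GPI. The vehicle values lay close together, and the GPI value of M4 rested on 3 counts in the library. Tie1 differed by -3.54 ± 0.32 on the log2 scale (standard error, edgeR), and 8.94% of the mean vehicle level was left.

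The first bases of both receptor genes are shown because the receptors fell together, with the motifs searched for in capitals. The windows are RefSeq promoters of GRCm38.p6, 250 bases before to 50 after the start of the gene, 5′ to 3′ on the strand of the gene. Tek lies at chr4:94739039-94739338 on the plus strand and Tie1 at chr4:118489800-118490099 on the minus strand.
Tek: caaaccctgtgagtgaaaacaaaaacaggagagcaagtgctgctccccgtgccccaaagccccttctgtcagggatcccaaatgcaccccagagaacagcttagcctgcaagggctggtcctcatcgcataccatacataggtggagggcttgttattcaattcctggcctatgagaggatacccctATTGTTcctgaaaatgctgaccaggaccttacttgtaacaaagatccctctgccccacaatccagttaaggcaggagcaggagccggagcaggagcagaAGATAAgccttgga
Tie1: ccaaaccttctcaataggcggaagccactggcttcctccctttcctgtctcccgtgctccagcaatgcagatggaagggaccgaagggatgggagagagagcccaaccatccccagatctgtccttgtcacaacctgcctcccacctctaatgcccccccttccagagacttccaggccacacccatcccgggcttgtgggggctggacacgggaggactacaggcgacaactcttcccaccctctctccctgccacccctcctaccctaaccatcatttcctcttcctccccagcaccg
In Tek the capitals mark the SOX motif AACAAT, read on the opposite strand from 63 bases before the start, and the GATA motif AGATAA, 36 bases after it. The Tie1 window holds none of the motifs searched.

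Angpt1 (Entrez Gene 11600, mm10 chr15:42424667-42676977, minus strand), the activating ligand, had 136, 316, 197, 152 and 216 normalized counts with vehicle and 145, 237, 245, 150.4 and 220.1 with GPI. The ranges overlap, with the GPI testis higher in 3 mice and lower in 2. The fitted level with GPI was 0.998 times that with vehicle (95% confidence interval 0.815 to 1.22, adjusted p = 0.992, edgeR). A fall as large as that of any of the 8 other genes lies outside this interval, while any change between 0.815 and 1.22 times the vehicle level does not.

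Angpt2 (Entrez Gene 11601, mm10 chr8:18690263-18741562, minus strand), the ligand stored in endothelial cells, had 688, 603, 614, 573 and 1054 normalized counts with vehicle and 517, 748, 672, 704 and 808 with GPI. The vehicle testis of M5 stood well above the other vehicle testes, the ranges overlap, and the GPI testis was higher in 3 mice and lower in 2. The fitted level with GPI was 0.992 times that with vehicle (95% confidence interval 0.83 to 1.19, adjusted p = 0.961, edgeR). Without M5 the log2 fold change was 0.09, still not called. Endothelial cells are a known source of Angpt2, which did not differ while the receptors and the surface and junction genes were lower. Which cells of these testes held the Angpt2 RNA was not tested. Reads were counted without regard to strand, and Angpt2 lies within the span of Mcph1 on the other strand, whose log2 fold change was 0.03 (adjusted p = 0.855, edgeR).

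**Figure D2:**
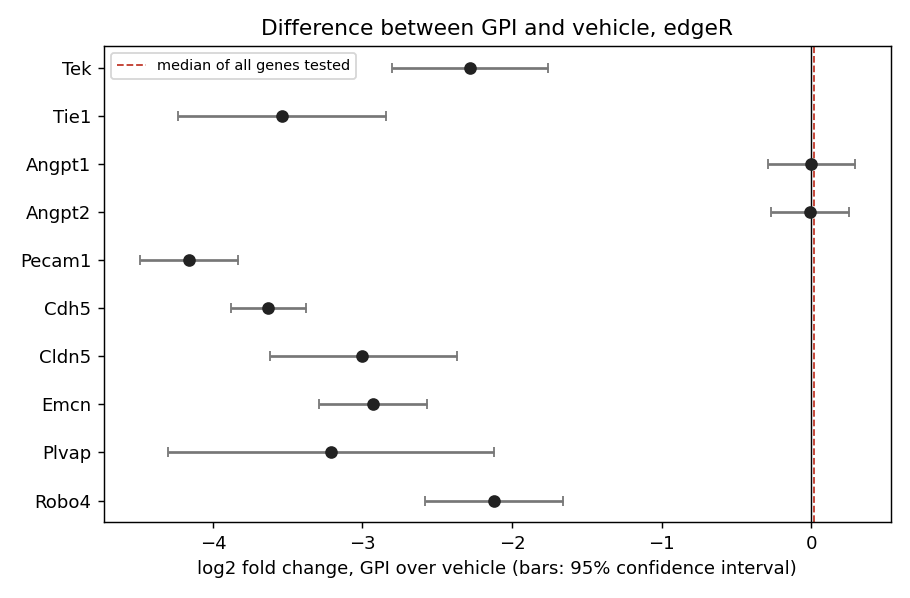
Log2 fold change of each gene, GPI over vehicle, with its 95% confidence interval from edgeR (5 mice), and the median of all genes tested (dashed, 0.02). The intervals of Angpt1 and Angpt2 span 0, and the upper ends of the other 8 lie at or below -1.66.

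Because ligands and receptors are read from the same library, their ratio is free of library scaling. The log2 ratio of Angpt2 to Angpt1 counts was 2.33, 0.93, 1.64, 1.91 and 2.29 with vehicle and 1.83, 1.66, 1.45, 2.22 and 1.87 with GPI. Their means differed by -0.01 (exact two-sided permutation test over 252 regroupings of 5 against 5, p = 0.976, adjusted over 4 ratios 0.976), so that the balance of both ligands did not differ detectably, with a GPI testis higher in 2 mice and lower in 3. The Tie1 to Tek ratio, receptor against receptor, was 1.16, -0.23, 0.63, 0.69 and 0.80 on the log2 scale with vehicle and -0.10, -1.65, -0.38, -1.95 and -0.10 with GPI. It was lower with GPI in 5 of 5 mice by a mean of -1.44, although the groups overlap because the vehicle value of M2 lay below the GPI values of M1 and M5 (exact two-sided permutation p = 0.0238, adjusted 0.0476). With any of the 5 mice left out, the adjusted p of this ratio no longer passed 0.05, and without M4, whose Tie1 value rests on 3 counts, the difference was -1.15. The exact sign-flip test that pairs the testes of a mouse gave p = 0.0625, the smallest that 5 pairs allow, adjusted 0.125, so that this ratio was not called with the pairing.

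Chosen after the values were seen, the ratio of each ligand to Tek was added. Angpt1 to Tek was 0.79, 0.86, 0.78, 0.22 and 1.07 on the log2 scale with vehicle and 3.07, 2.78, 3.08, 3.41 and 2.83 with GPI. Angpt2 to Tek was 3.12, 1.79, 2.43, 2.13 and 3.35 with vehicle and 4.90, 4.44, 4.54, 5.63 and 4.70 with GPI. The groups do not overlap in either ratio, and both were higher with GPI in 5 of 5 mice, by a mean of 2.29 and 2.28. Since Tek was already known to be lower and the ligands to be level, these ratios are a description, with no test. On the linear scale the geometric mean of Angpt1 counts per Tek count went from 1.67 to 8.2, and that of Angpt2 from 5.91 to 28.7.

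**Figure D3:**
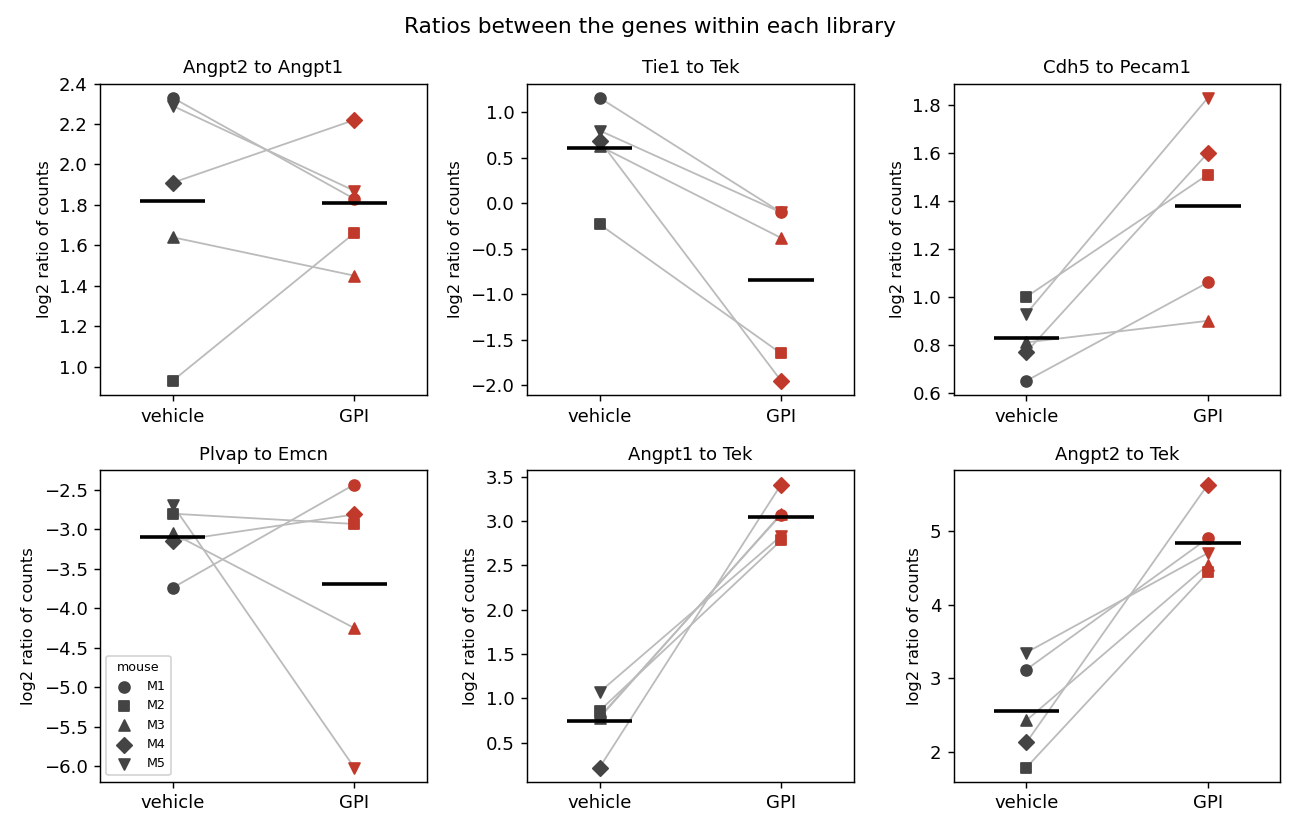
Log2 ratios of counts within each library, vehicle (grey) and GPI (red), 1 marker shape per mouse, with lines joining both testes of a mouse and black bars at the means. Angpt1 to Tek and Angpt2 to Tek separate the treatments completely, with GPI means of 3.04 and 4.84 against 0.74 and 2.56.

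Cdh5 (Entrez Gene 12562, mm10 chr8:104101625-104144502, plus strand), the VE-cadherin of endothelial adherens junctions, was the most abundant of the 10 genes with vehicle, while with GPI Angpt2 was (690.0 normalized counts on average, against 232 for Cdh5). It had 2644, 3114, 2581, 2959 and 2837 normalized counts with vehicle and 213, 333, 196, 170.4 and 249.5 with GPI. The vehicle values stayed within a narrow band, the GPI values lay far below it, and M2 was the highest with either treatment. The difference on the log2 scale was -3.63 ± 0.12 (standard error, edgeR adjusted p = 3.76e-10). Its first bases overlap Gm29682 on the other strand, which reached at most 13.4 normalized counts in a library and was not tested.

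Pecam1 (Entrez Gene 18613, mm10 chr11:106654213-106715281, minus strand), an adhesion molecule of endothelial junctions, had 1689, 1561, 1475, 1738 and 1489 normalized counts with vehicle and 102, 117, 105, 55.8 and 69.7 with GPI. M4 held the most with vehicle and the least with GPI. Its log2 fold change, -4.16 ± 0.15 (standard error, edgeR adjusted p = 1.07e-09), ranks 47 from the lowest among 13941 genes tested, and 5.64% of the mean vehicle level was left. Pecam1 fell further than Cdh5. The log2 ratio of Cdh5 to Pecam1 was 0.65, 1.0, 0.81, 0.77 and 0.93 with vehicle and 1.06, 1.51, 0.90, 1.6 and 1.83 with GPI, higher with GPI in 5 of 5 mice by a mean of 0.55 with M3 inside the vehicle range (exact two-sided permutation p = 0.0238, adjusted over 4 ratios 0.0476). With any of the 5 mice left out, the adjusted p no longer passed 0.05, while the difference stayed between 0.46 and 0.67. Paired by mouse, the exact sign-flip p was 0.0625 and 0.125 after adjustment, not called. Germ cells, platelets and leukocytes also carry Pecam1. Among their marker genes, given below, some reached the minimum of the filter with both treatments. Of these, 1 of 2 in germ cells and 5 of 6 in macrophages were called lower with GPI. The 1 such gene of megakaryocytes and platelets was not called. The germ cell gene called was Ddx4 (log2 fold change -2.72), and the other was Kit (-0.16), which somatic cells also express. Dazl (-4.62), Dppa3 (-5.2), Sall4 (-4.89) and Mael (-5.17) were called lower too, but reached the minimum with vehicle only. The paper counted fewer germ cells in testes cultured with GPI. The part of germ cells, platelets and leukocytes in the ratio was not tested.

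Cldn5 (Entrez Gene 12741, mm10 chr16:18776847-18778262, plus strand), the claudin of endothelial tight junctions, had 109.6, 153, 118, 136 and 143 normalized counts with vehicle and 23.5, 29.2, 12.4, 13.7 and 6.54 with GPI. Here the lowest GPI value came from M5, not M4. Cldn5 differed by -3.00 ± 0.29 on the log2 scale (standard error, edgeR), from 6 to 36 counts per GPI library. Emcn (Entrez Gene 59308, mm10 chr3:137341078-137431069, plus strand), a sialomucin of the endothelial surface, had 407, 426, 328, 472 and 346 normalized counts with vehicle and 44.8, 70.5, 62.8, 47.3 and 34.9 with GPI. Emcn differed by -2.93 ± 0.17 on the log2 scale (standard error, edgeR adjusted p = 4.88e-08), and its groups lie far apart.

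Plvap (Entrez Gene 84094, mm10 chr8:71497753-71511769, minus strand), which forms the diaphragms of fenestrae and caveolae, was the scarcest of the genes in counts. It had 29.9, 60.9, 39.1, 52.8 and 53.3 normalized counts with vehicle and 7.83, 8.92, 2.85, 6.31 and 0 with GPI. The GPI libraries hold 7, 11, 3, 6 and 0 counts, and a count of 0 allows up to 3 by counting error alone. Plvap differed by -3.21 on the log2 scale (95% confidence interval -4.30 to -2.12, edgeR), the widest interval of the 10 genes. The Plvap to Emcn log2 ratio, which compares surface proteins that differ between vessel beds, had means of -3.09 ± 0.41 with vehicle and -3.69 ± 1.47 with GPI (SD, n = 5). They did not differ detectably (difference -0.60, exact two-sided permutation p = 0.484, adjusted over 4 ratios 0.646), and M5, with no Plvap count, set the sign: without it the difference was 0.08. With a prior count of 2 in place of 0.5 it was -0.04.

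Robo4 (Entrez Gene 74144, mm10 chr9:37401897-37414023, plus strand), the endothelial member of the roundabout receptors, had 176, 279, 178, 317 and 278 normalized counts with vehicle and 58.2, 73, 48.5, 32.6 and 67.6 with GPI. M4 again went from the highest vehicle value to the lowest GPI value. Its log2 fold change, -2.12 ± 0.21 (standard error, edgeR adjusted p = 7.34e-06), was the smallest of the 8, with 22.8% of the mean vehicle level left.

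The promoters of Emcn and Robo4, likewise from RefSeq on GRCm38.p6, are shown because they hold the ETS motif, bound by a family of factors that includes endothelial regulators. Emcn lies at chr3:137340828-137341127 and Robo4 at chr9:37401722-37402021, both on the plus strand.
Emcn: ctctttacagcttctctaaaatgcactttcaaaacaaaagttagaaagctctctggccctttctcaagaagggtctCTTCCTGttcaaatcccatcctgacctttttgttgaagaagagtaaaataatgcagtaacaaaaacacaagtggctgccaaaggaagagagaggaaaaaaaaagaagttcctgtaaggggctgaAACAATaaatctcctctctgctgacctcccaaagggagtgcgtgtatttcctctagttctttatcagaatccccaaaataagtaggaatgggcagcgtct
Robo4: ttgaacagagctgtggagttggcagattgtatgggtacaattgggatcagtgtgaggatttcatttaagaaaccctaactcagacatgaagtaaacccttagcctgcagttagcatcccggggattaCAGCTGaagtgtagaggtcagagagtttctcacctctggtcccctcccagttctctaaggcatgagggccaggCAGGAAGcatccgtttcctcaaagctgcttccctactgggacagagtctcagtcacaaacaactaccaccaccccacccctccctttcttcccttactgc
In Emcn the capitals mark the ETS motif CAGGAAG, read on the opposite strand from 174 bases before the start, and the SOX motif AACAAT from 50 bases before it. In Robo4 they mark the E-box CAGCTG from 123 bases and CAGGAAG from 50 bases before the RefSeq start, which lies 75 bases inside the entry of the count table.

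RefSeq promoters were matched for 5 of the 10 genes, Tek, Tie1, Cldn5, Emcn and Robo4. Among all 32851 promoters of 300 bases, on either strand, CAGGAAG was found in 13.3%, the second ETS motif CCGGAAG in 8.86%, AGATAA in 11.2%, AACAAT in 10.7% and CAGCTG in 16.3%. Among the 13995 of these promoters that belong to tested genes the shares were 12.1% for CAGGAAG, 16.2% for CCGGAAG, 6.47% for AGATAA, 5.97% for AACAAT and 15.6% for CAGCTG. In the 5 promoters here, CAGGAAG was found in 2, AACAAT in 2, AGATAA in 1 and CAGCTG in 1, and the Cldn5 window (chr16:18776597-18776896), like that of Tie1, held none. A match describes these letters only, and no match says only that they are not in the window.

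Levels were compared between genes per length, as TMM-scaled counts per kilobase of exon and per 1000000 counts (FPKM). Exon lengths came from GENCODE, while the reads had been counted on RefSeq gene models, so that levels and their order depend on how far both annotations match. With vehicle the order of mean FPKM was Cdh5 at 54.6 ± 4.26, Pecam1 at 20.7 ± 1.54, Angpt2 at 15.5 ± 4.38, Cldn5 at 7.57 ± 1.02, Emcn at 5.94 ± 0.885, Robo4 at 3.76 ± 0.99, Angpt1 at 3.17 ± 1.1, Tie1 at 2.94 ± 0.364, Tek at 2.07 ± 0.615 and Plvap at 1.93 ± 0.509 (SD, n = 5). The vehicle ranges of neighbours in this order do not overlap between Cdh5 and Pecam1, between Angpt2 and Cldn5 or between Emcn and Robo4, and all other neighbours overlap. With the length of the longest transcript in place of all exons, Emcn at 9.13 came before Cldn5 at 7.57, and Pecam1 was at 37.5. With GPI, Angpt2 came first at 15.2 ± 2.41, ahead of Cdh5 at 4.49 ± 1.22 and Angpt1 at 3.11 ± 0.749, and the mean FPKM of the other 7 genes was at most 1.17, for Pecam1 (SD, n = 5).

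The fall was seen in each mouse. Summed over the 8 genes, normalized counts went from 5311 to 481 in M1, from 5916 to 676 in M2, from 5009 to 477 in M3, from 6016 to 343 in M4 and from 5429 to 487 in M5. The GPI testis held 9.06%, 11.4%, 9.53%, 5.7% and 8.97% of the vehicle sum, lowest in M4. In 6 of the 8 genes the lowest log2 ratio of the 5 mice was that of M4, and in Cldn5 and Plvap it was that of M5. Since these 8 genes are those called lower, their common direction follows from how they were taken.

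Other genes of the angiopoietin pathway were mixed. Of 16 genes in the list, 13 were tested, and 5 were called lower and 1 higher, with a median log2 fold change of -0.11. Across all genes tested, 11.9% were called lower and 11.1% higher. The counts of this list and of those below are to be read beside these shares. Ptprb, the phosphatase VE-PTP that dephosphorylates TEK, had 682 ± 66.9 normalized counts with vehicle and 49.5 ± 22.3 with GPI (SD, n = 5), a log2 fold change of -3.81 (adjusted p = 3.04e-08, edgeR). The endothelial nitric oxide synthase Nos3 (-3.15), the secreted proteoglycan gene Esm1 (-2.86, also counted in the list of other endothelial surface genes), the flow-responsive transcription factor Klf2 (-2.03, which reached the minimum of the filter with vehicle only) and the PI3-kinase subunit Pik3r1 (-0.54) were the other genes called lower, and the adaptor Grb14 (0.81) was called higher, each value a log2 fold change. The widely expressed signalling genes Shc1, Ptpn11, Pik3ca, Akt1 and Foxo1 had log2 fold changes of -0.11 to 0.14 and were not called. Svep1, an extracellular protein that binds TIE1, had a log2 fold change of 0.15 (adjusted p = 0.393, edgeR), and the third angiopoietin of the mouse, Angpt4, was too scarce to be tested, at 0 to 6.86 normalized counts with vehicle and 8.11 to 16.8 with GPI.

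Partners of the junction proteins were mixed. Of 16 genes, 15 were tested, with 5 called lower, 2 higher and a median log2 fold change of -0.07. Among the catenin genes, Ctnnb1, Ctnna1 and Ctnnd1 were not called, with log2 fold changes of -0.17, -0.15 and -0.07, while Jup was called lower. Ctnnb1 was called lower without M2, and Ctnna1 with total counts. Esam, an adhesion molecule of endothelial tight junctions, was called lower at -3.29 (adjusted p = 8.92e-08, edgeR), and the scaffold Tjp1 at -0.87, Cgnl1 at -0.76 and the plakoglobin gene Jup at -0.62 on the log2 scale were among the others. Jam2 (0.90) and Jam3 (0.36) were called higher. Jam3 was no longer called without M1, M2, M3 or M4, by DESeq2 or with total counts. The catenins are used by cadherins of many cell types, and the most abundant gene of this list, Ctnnb1, had 11192 normalized counts on average with vehicle and 9894 with GPI.

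Most other endothelial surface genes were lower too. Of 20 listed, 18 were tested, 15 were called lower and 3 were not called (Icam1, Cav1 and Acvrl1), with a median log2 fold change of -2.24. Examples on the log2 scale are the adhesion molecule Icam2 at -3.53, the sialomucin Cd34 at -3.49, the TGF-beta co-receptor Eng at -1.70 and Mcam at -1.66. The lipase anchor Gpihbp1, at -4.48, reached the minimum of the filter with vehicle only. Thbd, the thrombin cofactor, was called lower by the least, at -0.41 (adjusted p = 0.0245, edgeR) and no longer without M3, M4 or M5, and Cav1 had a log2 fold change of -0.06 (adjusted p = 0.695). Summed normalized counts of the list were 11636 to 14876 with vehicle and 3984 to 4696 with GPI, and its most abundant gene was Cd93 with vehicle (4751, against 562 with GPI) and Thbd with GPI (1692). Of the 18 tested genes, 14 reached the minimum of the filter with both treatments, and 11 of these were called lower (median -2.24).

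By vessel type, all 7 tested of 8 arterial genes were called lower, with a median log2 fold change of -2.67. The minimum of the filter was reached with both treatments by 5 of the 7 (median -2.05), among them Cxcr4 (-2.67), the connexin Gja4 (-2.05) and the ephrin Efnb2 (-1.16). The connexin Gja5 (-5.02) and the transcription factor Sox17 (-3.08) reached it with vehicle only. Of 9 venous and lymphatic genes, all tested, 2 were called lower, the VEGF receptor Flt4 (-3.22) and the scavenger receptor Stab1 (-3.36). Another 2 were called higher, Prox1 (1.01) and Pdpn (0.42), and the median was -0.29. Nr2f2 (-0.18), Ephb4 (-0.29) and Aplnr (-0.53) were not called, although Nr2f2 was with total counts. The lymphatic receptor Lyve1 (-1.88, edgeR adjusted p = 0.0527) was not called either, but was called lower by DESeq2, with total counts, without the filter and without M3. The number called was 5 by DESeq2 and 6 with total counts, and the median was -0.44 without M2 and -0.54 without M4. The minimum of the filter was reached with both treatments by 6 of the 9, of which 1 was called lower and 2 higher (median -0.23), and Stab1 and Lyve1 reached it with vehicle only. Nr2f2 and Pdpn are also expressed outside vessels, Nr2f2 in interstitial cells, and Nr2f2 made up most of the summed level of the list, with 4162 normalized counts on average with vehicle and 3669 with GPI. Whether arterial and venous genes differed in their change was not tested, nor was which cells of the testis carried the genes of either list.

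Relatives, ligands and partners of Robo4 were mixed. Of 8 genes, 6 were tested, with a median log2 fold change of -0.11. Unc5b, the partner that ROBO4 binds, was called lower at -1.27 (adjusted p = 5.6e-05, edgeR), as was the GTPase regulator Srgap1 at -0.49, while Robo2 was called higher at 0.84 (adjusted p = 1.84e-06, edgeR). Robo1 (-0.09), Slit2 (-0.14) and Slit3 (0.18) were not called, and Robo3 and Slit1 were too scarce to be tested.

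**Figure D4:**
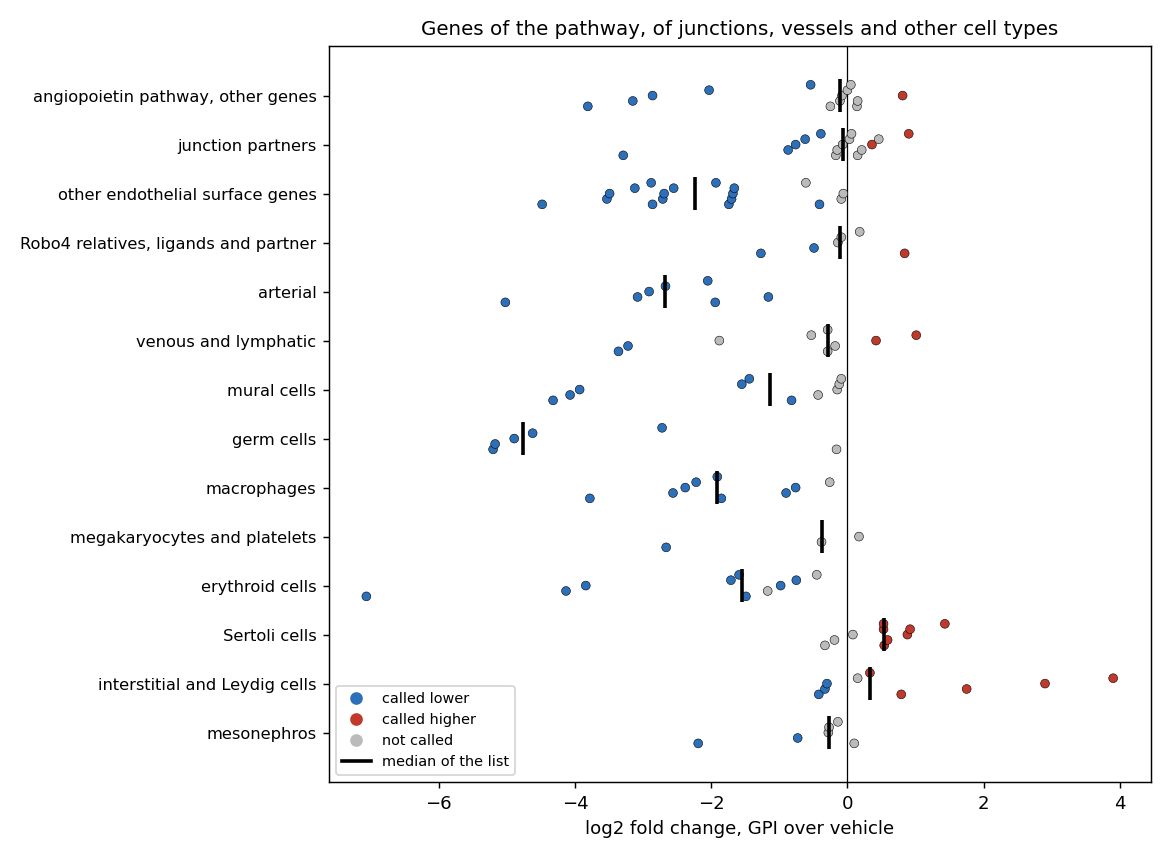
Log2 fold change (GPI over vehicle, edgeR, 5 mice) of every tested gene in each list, coloured by its call at an FDR of 0.05, with the median of the list as a black bar. Arterial and other endothelial surface genes lie to the left with medians of -2.67 and -2.24, and mural, germ, macrophage and erythroid genes also have medians below -1, while the medians of Sertoli and interstitial genes are 0.54 and 0.33.

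Markers of other cell types changed with treatment as well. Of 10 mural cell genes, all tested, 6 were called lower (median log2 fold change -1.13): Rgs5 (-4.32), Kcnj8 (-4.07), Abcc9 (-3.93), Pdgfrb (-1.55), Cspg4 (-1.44) and Notch3 (-0.82), genes known from pericytes, although Notch3 and Pdgfrb are not restricted to them. The 4 contractile or filament genes Acta2, Tagln, Myh11 and Des had log2 fold changes of -0.43 to -0.09 and were not called, although Des was called lower without M2. Summed normalized counts of the list were 10575, 11612, 11630.0, 11130.2 and 10295 in the vehicle testes of M1 to M5 and 3708, 3363, 3385, 2679.7 and 3264 in their GPI testes, with Abcc9 the most abundant gene with vehicle (5342 on average, against 352 with GPI) and Acta2 with GPI (1048). Mural cells are a known source of Angpt1, which did not differ while these pericyte genes fell. The part of mural cells in the Angpt1 level was not tested.

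Among 10 germ cell genes, 6 were tested and 5 called lower (median log2 fold change -4.76), among them Dppa3 (-5.20), Sall4 (-4.89), Dazl (-4.62) and Ddx4 (-2.72), and Kit was not called. The minimum of the filter was reached with both treatments by 2 of the 6, Ddx4 and Kit, and the others entered through the vehicle libraries. With at least 10 counts in every library, 1 gene was called and the median was -1.45. The list summed to 1697, 2896, 2106, 2735 and 1513 normalized counts with vehicle and 909.9, 713, 757, 962 and 929 with GPI, most of the latter from Kit (771 on average), which somatic cells also express. Of 10 macrophage genes, 9 were tested and 8 called lower (median -1.91), among them Cx3cr1 (-2.38, which reached the minimum with vehicle only), Csf1r (-2.22), C1qb (-1.91) and Ptprc (-1.85), with Adgre1 not called at -0.26. That list summed to 1079.6, 702, 832, 789.9 and 770.2 with vehicle and 447, 390.0, 363, 208 and 252 with GPI, and its most abundant gene was Ptprc with vehicle (170.4 on average) and Cd68 with GPI (90.3). Of the 9 tested genes, 6 reached the minimum with both treatments and 5 of these were called lower (median -1.38).

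Of 8 genes of megakaryocytes and platelets, which carry Pecam1 too, 3 were tested and 1 was called lower, Pf4 at -2.66, with Gp1ba at -0.38 and Itga2b at 0.17 not called (median -0.38) and Ppbp too scarce to be tested. Pf4 reached the minimum of the filter with vehicle only, and Gp1ba, not called, was the 1 gene of the list that reached it with both treatments. The median was -0.85 without M1, -0.19 without M2, -0.23 without M3 and -1.65 without the filter, and the number called ran from 0 to 2 over the alternatives. The list summed to 56.5, 132, 73.7, 202 and 111 normalized counts with vehicle and 64.9, 31.6, 43.7, 72.6 and 64.3 with GPI, and Treml1 had no count in the GPI libraries. Of 10 erythroid genes, all tested, 8 were called lower (median -1.54), among them Hbb-bs (-4.13) and Hbb-bt (-3.84), while of the 6 that reached the minimum with both treatments 5 were (median -1.29). Hba-a1 (-1.59) and Hba-a2 (-1.49) are near-identical copies whose reads may be split between them, and Hba-a2, which reached the minimum with vehicle only, was no longer called without M2, M3 or M4. The list summed to 2113, 2804, 5301, 4951 and 4206 with vehicle and 1881, 1027, 962, 1084 and 2531 with GPI, with Hbb-y the most abundant (1785 and 937 on average). The part of blood and germ cells in the fall of Pecam1 was not tested, and none of the lists had a gene without counts in all 10 libraries.

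Genes of Sertoli cells were higher or not called, and those of the interstitium moved in both directions. Of 10 Sertoli cell genes, all tested, 7 were called higher (median log2 fold change 0.54), among them Sox8 (1.43), Dhh (0.92), Sox9 (0.59) and Dmrt1 (0.53, no longer called without M2, M3, M4 or M5), with Amh at 0.08 not called. Their sum ran from 5007 to 7902 normalized counts with vehicle and from 6549 to 11920.3 with GPI, with Gata4 the most abundant. Of 10 interstitial and Leydig cell genes, 9 were tested, 5 were called higher, among them Cyp17a1 (3.90), Cyp11a1 (2.90), Hsd3b1 (1.75) and Pdgfra (0.33), and 3 lower, among them Tcf21 (-0.30) and Gli1 (-0.42), with a median of 0.33. Without M3 or M4, 5 genes of this list were called in place of 8, and Tcf21 and Gli1 were not among them. That list summed to 9759.8 to 15500.2 with vehicle and 19472 to 27419.8 with GPI, with Pdgfra the most abundant. Of 10 mesonephros genes, 6 were tested and 2 called lower, Epcam (-2.19) and Emx2 (-0.73), while Pax8 (-0.28) and Wt1 (-0.14) were not called (median -0.27, from -0.44 to -0.07 with 1 mouse left out) and Pax2 and Lhx1 were too scarce to be tested. Epcam reached the minimum of the filter with vehicle only, and with at least 10 counts in every library 1 gene was called. Wt1 was called lower with total counts. Wt1 and Emx2 of the mesonephros list are also genes of the gonad itself, as is Gata4 of the Sertoli cell list. How completely the mesonephros was removed was not measured.

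The genes whose log2 levels over the 10 libraries were most like Cdh5 among 11096 tested genes that averaged 50 counts or more per library were Adgrf5 (Pearson r = 0.997), Gpihbp1 (0.996), Cd34 (0.996), Kcnj2 (0.995) and Kcne3 (0.995). For Tek they were Adgrl4 (0.981), Luc7l3 (0.98), Dnajc13 (0.974), Tspan18 (0.974) and Tcf4 (0.973), of which Luc7l3 and Dnajc13 had log2 fold changes of -0.20 and -0.26. For Angpt1 they were Inpp5k (0.934), Ylpm1 (0.892), Zfp618 (0.882), Myh11 (0.881) and Zfp808 (0.873), none of them called by edgeR, with log2 fold changes of -0.15 to 0.11. These values describe 10 libraries that share a pair of treatments. The part of the treatment difference in the likeness to Cdh5 and Tek was not tested.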

How the data were processed

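Per the submitters' processing notes and the study's methods, reads were aligned to mm10 by STAR 2.5 and assigned to genes, unstranded, by featureCounts from Subread 1.5.0-p1. The authors deposited the raw counts, which were used as they stand. Libraries were amplified and carry no molecular identifiers, so errors come from the spread between mice. The 10 columns match the sample labels.

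Counts were TMM-scaled (factors 0.951 to 1.0389), filtered by filterByExpr (minimum count 10, total 15) and tested with edgeR 4.0.16 (quasi-likelihood, mouse and treatment, Benjamini-Hochberg adjustment, FDR 0.05) in R 4.3.3. Standard errors are the log2 fold change over the square root of F. The pairing comes from the animal label. Deviations from the treatment mean correlated within a mouse by -0.0398 to 0.155, and 2 of 5 vehicle libraries correlated best with their own partner. Chi-square per degree of freedom between libraries of 1 treatment was at least 6.42, so that none were duplicates.

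Per-mouse log2 ratios used a prior count of 2, and ratios between genes a prior count of 0.5, 4 of them tested by exact permutation. Exon lengths came from GENCODE M21 by Entrez identifier, while the authors counted on RefSeq gene models. Alternatives were DESeq2 1.42.0, limma-voom (limma 3.58.1), no replicate block, other scaling and filters, other lengths and prior counts, and each mouse left out. The procedure was also run on simulated data, with no outcome given here.

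The members and lists were chosen with earlier results of these data known. Named are the 10 genes, the first 3 genes of each list and the 3 with the smallest p, and the 5 genes most like Tek, Cdh5 and Angpt1. Other genes named within a list were chosen after their values were seen. Some genes that this rule names are not reported here.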

Additional observations from a re-analysis of the deposited data

Results flagged for a closer look

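Of 60 sets of 5 libraries examined for a value far from the rest, 2 held one, and chance gives about 1 in 20. Angpt2 in the vehicle testis of M5 had 1054 normalized counts, while the other vehicle testes had 573 to 688. The summed level of Robo4 relatives, ligands and partner was 9756 in the vehicle testis of M2, against 10897 to 11250.2 in the other vehicle testes.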

How the results depend on the processing

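The 8 genes, among them the 5 that reached the minimum of the filter with both treatments, were called lower by edgeR, DESeq2 and limma-voom, with TMM, DESeq2 size factors or total counts, without the filter and without any 1 mouse. Without the replicate block that pairs the testes of a mouse, 8 were called lower as well, and 3108 genes in all against 3198, while Cd68, Dmrt1, Aard and Gli1 of the lists were not called. With at least 10 counts required in every library, Tie1, Cldn5 and Plvap were not tested and 5 genes were called lower. The number of genes called across the table ran from 2311 to 3472.

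Angpt1 and Angpt2 were never called, and their sign was not stable: the log2 fold change of Angpt1 was 0.11 without M2 and 0.00 without M4, and that of Angpt2 0.07 without M1 and 0.09 without M5, within ranges of -0.10 to 0.11 and -0.09 to 0.09. The cause was not tested.

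With 5 pairs, the exact sign-flip test with the replicate block cannot go below p = 0.0625, and none of the 4 ratios tested was called by it: Tie1 to Tek (-1.44) and Cdh5 to Pecam1 (0.55) reached 0.125 after adjustment. Without 1 mouse, Tie1 to Tek differed by -1.58 to -1.15 and Cdh5 to Pecam1 by 0.46 to 0.67, no longer called with 4 mice per treatment, where the smallest exact p is 0.0286 before adjustment. Angpt1 to Tek and Angpt2 to Tek, chosen after the data were seen and given with no test, differed by 2.07 to 2.42 and 1.97 to 2.51 without 1 mouse, and by 2.22 and 2.20 with a prior count of 2. Angpt2 to Angpt1 ran from -0.20 to 0.11 and Plvap to Emcn from -1.08 to 0.08, with p not past the threshold throughout.

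Of 168 list medians, 167 moved by less than the spread of the list. That spread is wide beside a median, so this does not show that the medians were stable. The germ cell median was -1.45 with at least 10 counts in every library. The median of megakaryocyte and platelet genes was -1.65 without the filter, against -0.38 with it. Of 86 called list genes, 20 were not tested with at least 10 counts in every library. Among alternatives in which a gene was tested, 11 of the 86 lost the call under at least 1, and 0 changed sign by edgeR, DESeq2 or limma-voom. The longest transcript in place of all exons moved 3 levels with vehicle by more than their SD over 5 mice: Tie1 to 3.41, Pecam1 to 37.5 and Emcn to 9.13 FPKM. Low counts limit Plvap, Tie1 and Cldn5 with GPI most.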
